A study of Mus musculus with 8 samples.

Results

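The serpins are a superfamily of protease inhibitors and related proteins, and their genes were read in kidney RNA of wild-type mice and of mice labelled as knockouts of the histone methyltransferase G9a, before and after ischemic injury. Members were the protein-coding genes whose name is Serpin followed by a clade letter from a to i and a number. This rule found 61 of the 54251 genes in the deposited values. It uses names alone and no measurement, it leaves out 7 rows with serpin names and another biotype, and it does not reach Agt, the angiotensinogen gene, whose protein is a serpin by fold. The series holds 8 polyadenylated RNA libraries from kidneys of adult male C57BL/6 mice, 2 in each of 4 groups, and each library pools RNA of 3 mice. WT is wild type, and KO is a knockout of Ehmt2, which encodes G9a, that the labels call specific to the kidney. WT_IR and KO_IR are these genotypes after ischemia-reperfusion (IR), in which blood flow through the left renal pedicle was occluded for 45 min and tissue was collected 3 days after the operation. The promoter that drives the recombinase and the kind of control kidney (an unoperated mouse or the uninjured side of an operated one) are not stated by the labels. With 2 pools a group, p-values measure the spread between pools.

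An inhibitory serpin offers its target protease an exposed reactive loop. When the protease cuts the loop, the serpin folds it into its body and drags the protease along, which traps both in a covalent complex. Clade A holds secreted inhibitors and hormone carriers that in mammals are made mainly in the liver, such as alpha-1-antitrypsin and antichymotrypsin. Clade B serpins stay mostly inside cells and guard them against granzymes and cathepsins. Serpinf2 restrains fibrinolysis at plasmin, Serping1 inhibits the first proteases of the classical complement and contact pathways, and Serpinh1 has no inhibitory role and folds collagen in the endoplasmic reticulum. In the mouse, clades A and B have expanded into clusters of close paralogs.

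Recovered depth was 14965670 to 17596690 fragments per library, and 3 fragments on a gene of 1 kb corresponded to 0.148 to 0.206 FPKM (a fragment count divided by gene length and library size, the unit of all levels here). Ehmt2 stood at 26.3 to 28.1 FPKM in the 4 knockout libraries and at 30.3 to 35.8 in the 4 wild-type libraries. The knockout mean was 80.6% of the wild-type mean, so whole-gene values show a lower transcript level and do not by themselves show loss of the gene. The injury marker Havcr1 was at 344 and 345 FPKM in WT_IR, at 33.1 and 47.3 in KO_IR and at 7.50 or lower in the uninjured libraries, where the highest value belonged to KO replicate 2. That library also had the highest summed macrophage markers among uninjured libraries, 95.1 against 48.1 to 61.9 FPKM. The median changes of the serpins in the knockout response and in the interaction are therefore given below with and without KO replicate 2. Other medians that rest on KO include this library. Tubule markers were abundant, with summed proximal tubule markers at 1769 and 2137 FPKM for WT, 2051 and 2106 for KO, 349 and 519 for WT_IR and 1824 and 1923 for KO_IR.

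Of the 61 members, 20 had a mean of at least 0.5 FPKM over the 8 libraries and were tested. Clade A contributed 9 of its 24 members, clade B 5 of 26, clade E 2 of 3, clade F both of its members, and clades G and H their single members. No member of clades C, D or I passed. Of the 41 members under the limit, 21 were at 0 in all 8 libraries and 4 reached 0.5 FPKM somewhere. Serpina7 passed through the WT_IR libraries alone, so that it had to differ there. Its values are given as a description, and the counts below are over the other 19 tested members. Serpina1c, with a mean of 0.574 FPKM, passed through the uninjured libraries, where it is high. Its lower level after injury was favoured by the limit and is a description, though it stays in these counts. Serpina3n and Serpinf1, at up to 0.439 and 0.449 FPKM in uninjured libraries, passed through the injured libraries of both genotypes. Their rises after injury were likewise favoured by the limit and are descriptions, though both stay in these counts.

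After injury in wild-type kidneys more serpin transcripts rose than fell. Of 19 tested members, 12 rose and 5 fell in WT_IR against WT, where 19.1% of all tested genes rose and 23.2% fell (limma, adjusted p under 0.05). The median log2 change was 1.15 for these members and -0.02 for all tested genes. Summed over the 61 members, levels came to 420 and 521 FPKM in the WT libraries and 472 and 499 in WT_IR, with 472 and 533 in KO and 413 and 419 in KO_IR. On the TPM scale (each library's FPKM rescaled to the same total) this sum was higher after injury in wild type, at 1607 and 1670 TPM for WT_IR against 984 and 1247 for WT, 1190 and 1331 for KO and 1049 and 1141 for KO_IR, so whether the sum changed depends on the scaling. Clade A held 51.9 ± 3.1% (SD, n = 2) of the serpin FPKM in WT and 33.5 ± 2.1% in WT_IR. Clade B held 6.20 ± 1.54% in WT and 14.3 ± 0.51% in WT_IR. Clade F, nearly all of it Serpinf2, went from 27.8 ± 0.67% to 14.6 ± 0.44%, clade G from 3.42 ± 0.42% to 13.6 ± 0.22% and clade H from 10.9 and 9.13% to 21.7 ± 1.2%. In KO the same shares were 60.9 ± 2.6% for clade A, 5.38 ± 0.41% for clade B, 20.4 ± 2.6% for clade F, 4.14 ± 0.081% for clade G and 8.46 ± 0.39% for clade H. KO_IR lay between WT and WT_IR, with 40.2 ± 1.1% for clade A, 8.89 ± 0.094% for clade B, 23.8 ± 3.5% for clade F, 9.90 ± 1.02% for clade G and 15.6 ± 1.6% for clade H. Shares within a library do not depend on how libraries are scaled to each other.

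**Figure D1:**
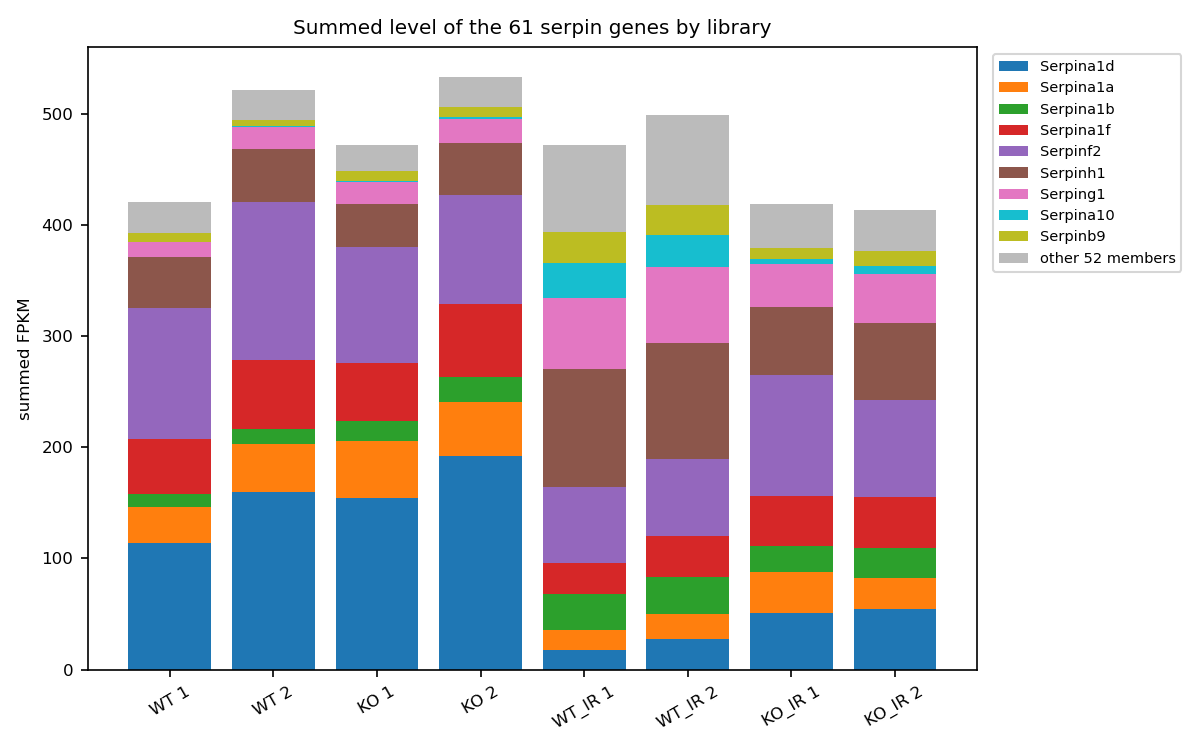
Summed FPKM of the 61 serpin genes in each library (bars, vertical axis), split by the 9 genes with the highest levels or changes and the remaining 52. On this scale the WT and WT_IR bars have similar heights, while the Serpina1d and Serpinf2 segments are smaller and the Serpinh1, Serping1, Serpinb9 and Serpina10 segments larger in WT_IR than in WT.

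**Figure D2:**
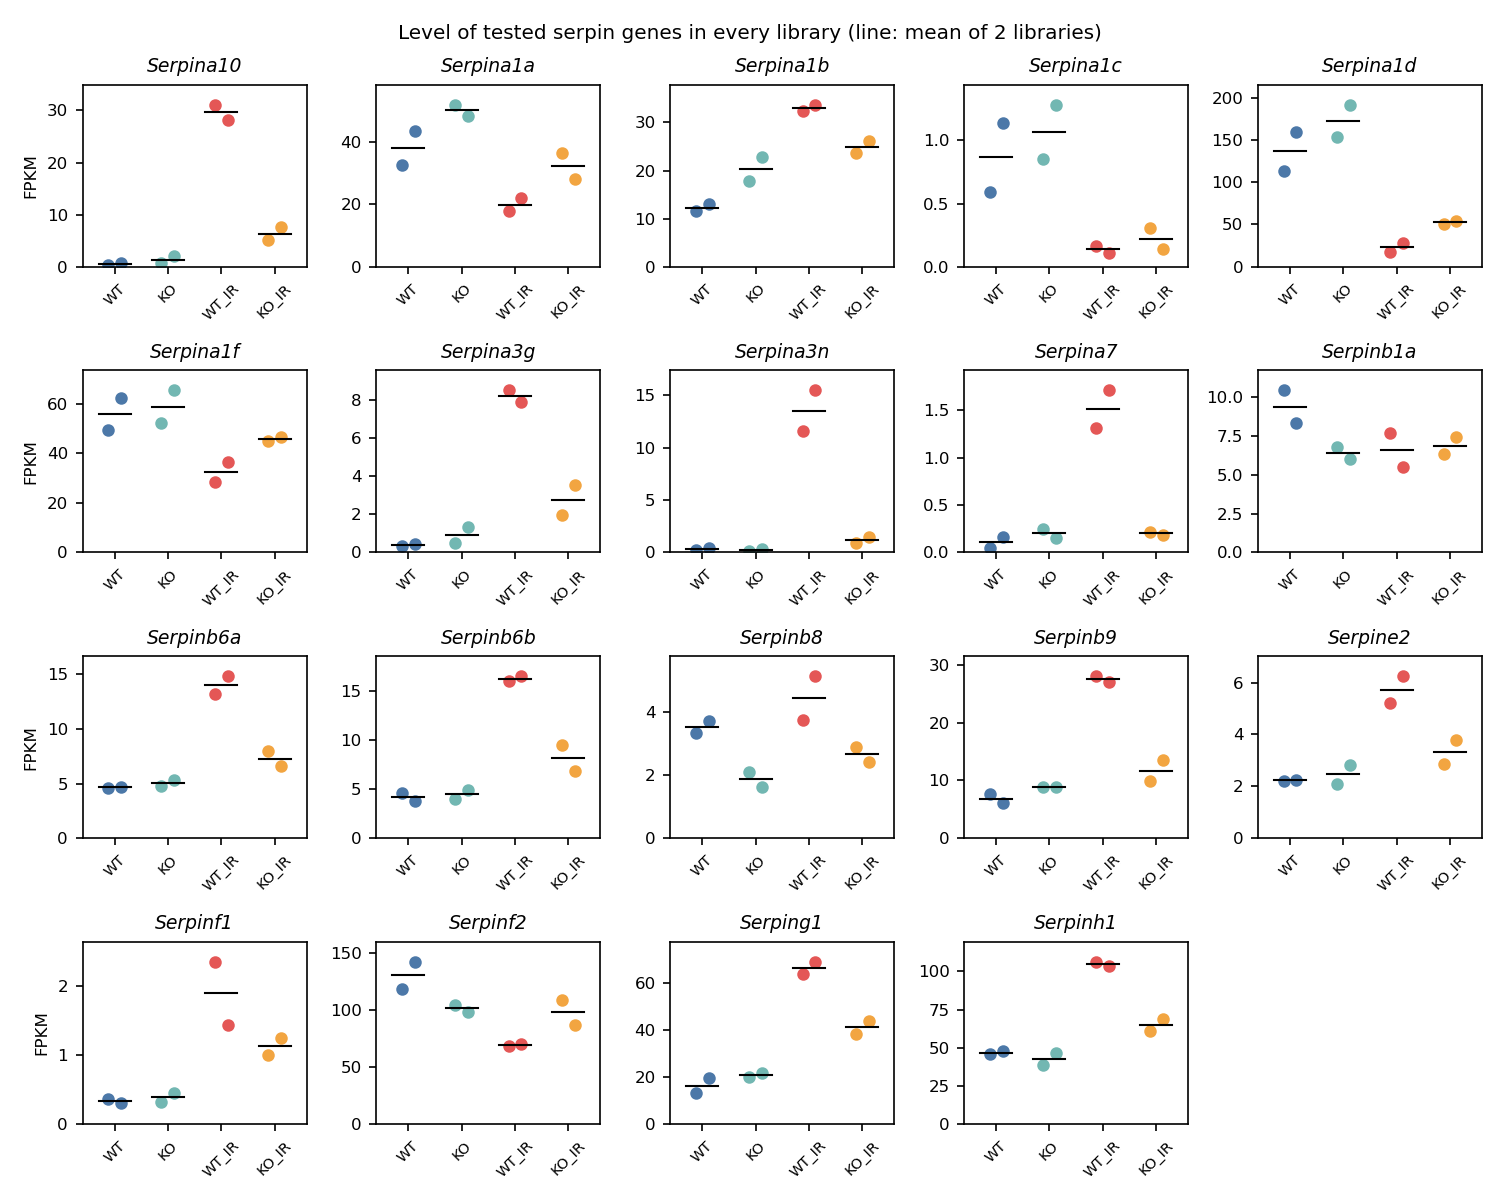
FPKM of each tested serpin gene named in the text (1 panel a gene, vertical axis from 0) in every library, grouped as WT, KO, WT_IR and KO_IR, with a line at the mean of 2 libraries. In most panels the KO_IR points lie between those of the uninjured groups and those of WT_IR.

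The alpha-1-antitrypsin genes, whose human counterpart inhibits neutrophil elastase, went in opposite directions after injury in wild-type kidneys. Serpina1d, with Serpinf2 the most abundant serpin transcript in uninjured kidneys, fell 6.02-fold in mean FPKM, Serpina1a and Serpina1c also fell, and Serpina1b rose 2.68-fold. These genes lie side by side on chromosome 12, with Serpina1d at chr12:103763594-103773592, Serpina1a at chr12:103853589-103863562, Serpina1c at chr12:103894926-103904887 and Serpina1b at chr12:103728156-103830373 (GRCm38). The Serpina1b gene model runs across Serpina1d on the same strand, but the exons of this pair share 0 bases in GENCODE M21. RefSeq promoter windows of the 3 abundant paralogs are shown because the genes moved apart although these sequences are nearly alike. They are the windows from 250 bases before to 50 bases after the start of transcription in RefSeq (GRCm38.p6), at chr12:103863570-103863869 (minus strand) for Serpina1a, chr12:103738140-103738439 (minus strand) for Serpina1b and chr12:103773584-103773883 (minus strand) for Serpina1d. The Serpina1b window lies inside the gene model, whose upstream end on the minus strand is at chr12:103830373. Which start gave the Serpina1b transcripts was not tested. Capitals mark bases that are not identical in at least 1 of the other 2 over the aligned stretch.
Serpina1a: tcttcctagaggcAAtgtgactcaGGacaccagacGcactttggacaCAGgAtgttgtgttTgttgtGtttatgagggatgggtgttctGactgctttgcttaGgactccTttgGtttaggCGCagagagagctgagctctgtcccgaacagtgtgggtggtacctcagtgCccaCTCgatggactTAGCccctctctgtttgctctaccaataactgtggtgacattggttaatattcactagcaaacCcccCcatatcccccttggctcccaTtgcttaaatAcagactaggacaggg
Serpina1b: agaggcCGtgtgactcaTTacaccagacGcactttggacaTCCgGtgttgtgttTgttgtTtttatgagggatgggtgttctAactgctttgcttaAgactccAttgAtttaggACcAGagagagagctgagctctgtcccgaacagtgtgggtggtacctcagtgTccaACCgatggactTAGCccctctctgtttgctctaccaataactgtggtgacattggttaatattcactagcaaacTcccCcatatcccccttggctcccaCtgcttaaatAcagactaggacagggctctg
Serpina1d: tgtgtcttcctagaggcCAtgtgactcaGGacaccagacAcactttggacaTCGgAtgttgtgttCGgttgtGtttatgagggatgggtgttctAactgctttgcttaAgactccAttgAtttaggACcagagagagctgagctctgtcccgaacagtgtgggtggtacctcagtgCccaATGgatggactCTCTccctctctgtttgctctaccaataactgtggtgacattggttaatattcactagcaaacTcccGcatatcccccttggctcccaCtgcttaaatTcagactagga
Pairwise identity of these windows was 93.2% for Serpina1a with Serpina1b, 92.9% for Serpina1a with Serpina1d and 94.1% for Serpina1b with Serpina1d. A motif of the transcription factor AP-1, searched as TGANTCA on both strands, was found once in each of the 3 windows and in that of Serpina1c, always as TGACTCA, with its first base at -240 to -229 from the start. It occurred in 7.81% of the 32851 RefSeq promoter windows of this length. Of the 16 tested members with a window, 5 held it, the fifth being Serpinb8.

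Serpina1d was at 114 and 159.9 FPKM in WT and 17.7 and 27.7 in WT_IR, and at 154 and 192 in KO and 50.96 and 54.6 in KO_IR. Both injured groups lay below both uninjured groups, and WT_IR lay below KO_IR. The log2 change (on log2 of FPKM plus 1, ± SE, as for all changes here) from WT to WT_IR was -2.55 ± 0.24 (limma, adjusted p = 0.000249). Serpina1b was at 11.6 and 12.99 FPKM in WT and 32.3 and 33.7 in WT_IR, and at 17.9 and 22.8 in KO and 23.6 and 26.2 in KO_IR. The 4 groups did not overlap, in the order WT, KO, KO_IR and WT_IR, and the change in wild type was 1.36 ± 0.13 (limma, adjusted p = 0.000246). Serpina1a was at 32.6 and 43.4 FPKM in WT and 17.9 and 21.9 in WT_IR, and at 51.9 and 48.2 in KO and 36.6 and 28.2 in KO_IR, so that WT_IR lay below every other library, with a change of -0.89 ± 0.18 (limma, adjusted p = 0.00645). Serpina1c was at 0.589 and 1.14 FPKM in WT and 0.166 and 0.108 in WT_IR, and at 0.856 and 1.28 in KO and 0.303 and 0.141 in KO_IR. No injured library reached the limit for testing. Serpina1c passed it through the uninjured ones, so its fall is a description. Its WT_IR values rest on 3 and 4 fragments, and its change of -0.70 ± 0.19 (limma, adjusted p = 0.0239) did not pass without WT replicate 2 or either WT_IR library (adjusted p up to 0.123). The fifth paralog, Serpina1e, stayed under the limit for testing, with 0.496 to 0.617 FPKM in uninjured kidneys, 0.0699 and 0.0913 in WT_IR and 0.198 and 0.401 in KO_IR. Serpina1f, a more distant relative at 56.0% to 57.7% transcript identity to the other 5, was at 49.3 and 62.4 FPKM in WT and 28.4 and 36.3 in WT_IR, and at 52.1 and 65.4 in KO and 45.02 and 46.6 in KO_IR. It fell in WT_IR by 0.77 ± 0.17 (limma, adjusted p = 0.00956), a call lost without WT replicate 2 or WT_IR replicate 1 (adjusted p up to 0.0615). With each library scaled to the same total over genes (the TPM scale), the changes of Serpina1a and Serpina1f were -0.41 and -0.27 and did not pass (limma, adjusted p = 0.0694 and 0.211). On that scale the median of all tested genes was itself 0.43.

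Within the 5 antitrypsin paralogs Serpina1b held 5.96 and 7.31% of their FPKM in WT and 40.3 and 47.4% in WT_IR, against 7.95 and 8.62% in KO and 21.1 and 23.99% in KO_IR. Serpina1d held 71.5 and 73.4% in WT and 26.00 and 33.2% in WT_IR, against 68.4 and 72.5% in KO and 45.6 and 49.9% in KO_IR. The share of Serpina1a was 19.9 and 20.5% in WT and 26.2 and 26.3% in WT_IR. Their summed level was 188 ± 42 FPKM (SD, n = 2) in WT, 245 ± 28 in KO, 75.8 ± 10.9 in WT_IR and 111 ± 1.8 in KO_IR. The split between paralogs is less sure than their sum, because their transcripts are 94.3% to 97.9% identical and the counting tool is not known here. Of all windows of 100 bases, 49.9% in Serpina1a, 20.6% in Serpina1b, 69.3% in Serpina1c and 29.3% in Serpina1d occur in a transcript of another gene, which was read from the longest protein-coding transcript in GENCODE M21. With windows of 150 bases these shares were 40.7%, 16.4%, 59.7% and 23.3%. Most windows of these Serpina1b and Serpina1d transcripts are thus found in no other gene. For Serpina1b the windows came from Serpina1b-203 (1762 bases) and the identity from Serpina1b-201, so these measures do not describe the same transcript.

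**Figure D3:**
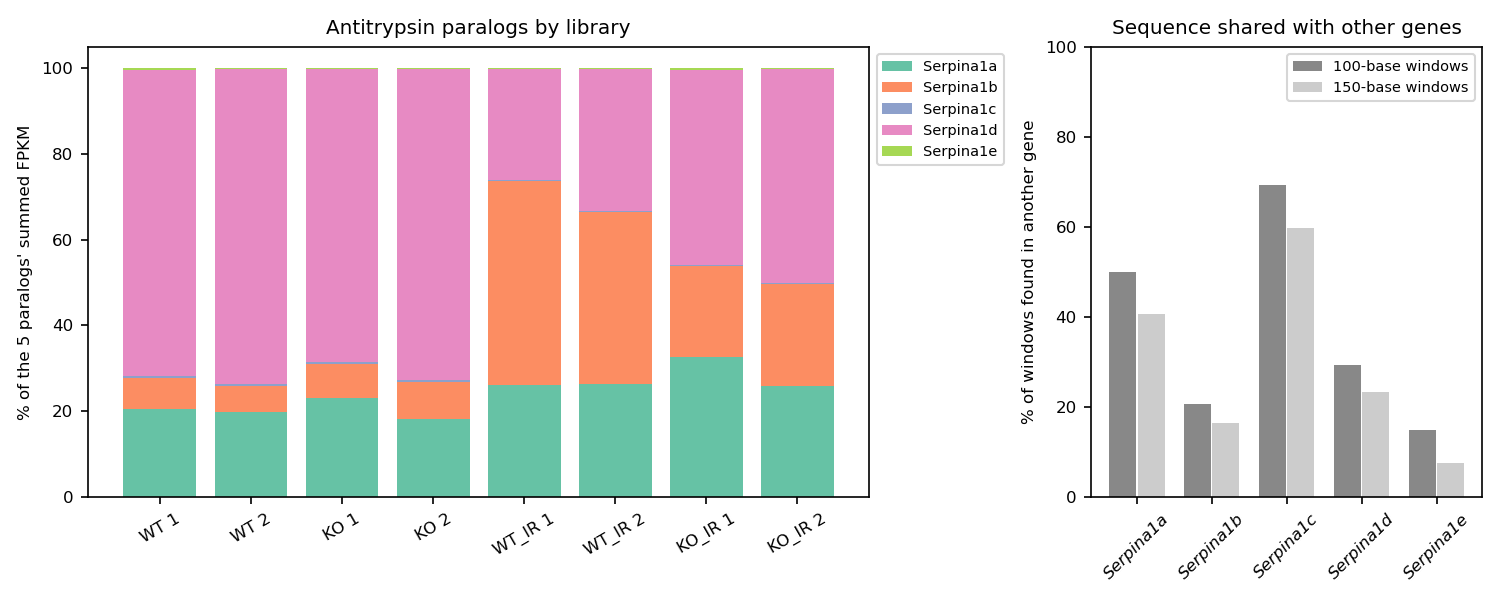
Left, share of each paralog in the summed FPKM of Serpina1a to Serpina1e (percent, stacked bars, 1 bar a library). Right, percent of transcript windows of 100 and 150 bases found in another gene. The Serpina1b share is 5.96 and 7.31% in the WT libraries and 40.3 and 47.4% in WT_IR.

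Serpina3n, Serpina3g and Serpina10 rose from near the limit of detection. Serpina3n is a mouse counterpart of human antichymotrypsin, which inhibits cathepsin G, Serpina3g works inside cells on cysteine cathepsins in the mouse, and Serpina10 inhibits coagulation factor Xa together with protein Z. Serpina10 was at 0.335 and 0.610 FPKM in WT and 31.1 and 28.2 in WT_IR, and at 0.706 and 1.96 in KO and 5.11 and 7.53 in KO_IR. Its mean FPKM in WT_IR was 62.7 times that in WT, a log2 change of 4.38 ± 0.27 (limma, adjusted p = 7.11e-05). Serpina3n was at 0.209 and 0.439 FPKM in WT and 11.6 and 15.5 in WT_IR, and at 0.166 and 0.362 in KO and 0.858 and 1.43 in KO_IR, and its change was 3.45 ± 0.20 (limma, adjusted p = 6.07e-05). KO_IR lay far below WT_IR for Serpina10 and Serpina3n and did not overlap with it. Serpina3n passed the limit for testing through the injured libraries, so its rise is a description. Serpina3g was at 0.352 and 0.430 FPKM in WT and 8.51 and 7.90 in WT_IR, and at 0.489 and 1.33 in KO and 1.96 and 3.53 in KO_IR, with a change of 2.73 ± 0.26 (limma, adjusted p = 0.000254). Serpina7, which carries thyroxine in blood and inhibits no protease, was at 0.0504 and 0.159 FPKM in WT and 1.32 and 1.71 in WT_IR, and at 0.252 and 0.153 in KO and 0.217 and 0.183 in KO_IR. Its WT_IR libraries alone exceeded 0.5 FPKM, and its log2 difference of 1.18 is given without a test. Another gene of the Serpina3 cluster stayed under the limit for testing, Serpina3i at 1.17 and 0.487 FPKM in WT_IR, 0.0796 and 0.0864 in KO_IR and 0 to 0.0280 in the uninjured libraries. Of 100-base windows of the Serpina3g transcript, 4.64% occur in another gene, against 0.204% for Serpina3n and 0% for Serpina10.

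The promoters of Serpina3g and Serpinb6a are shown because they hold the STAT motif, a site type of the factors that carry interferon and interleukin signals. It was searched as TTCNNNGAA on both strands and marked in capitals in the RefSeq windows at chr12:104235897-104236196 (plus strand) for Serpina3g and chr13:34002745-34003044 (minus strand) for Serpinb6a (GRCm38.p6).
Serpina3g: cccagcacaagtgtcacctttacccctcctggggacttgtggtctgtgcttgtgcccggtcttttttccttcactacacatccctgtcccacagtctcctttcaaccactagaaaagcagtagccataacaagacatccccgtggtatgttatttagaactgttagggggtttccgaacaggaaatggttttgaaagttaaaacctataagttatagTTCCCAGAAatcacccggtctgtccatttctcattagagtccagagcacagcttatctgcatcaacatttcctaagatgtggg
Serpinb6a: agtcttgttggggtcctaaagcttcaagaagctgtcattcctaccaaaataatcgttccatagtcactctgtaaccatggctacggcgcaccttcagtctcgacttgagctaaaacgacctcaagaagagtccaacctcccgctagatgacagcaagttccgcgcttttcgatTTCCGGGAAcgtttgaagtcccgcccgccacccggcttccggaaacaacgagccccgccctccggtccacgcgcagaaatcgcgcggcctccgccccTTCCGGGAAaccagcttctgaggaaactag
Serpina3g had 1 match, at -33 to -25 from the start, and Serpinb6a had 2. Among the 16 tested members with a window, 3 held the motif, the third being Serpina1f, which fell. It was present in 8.30% of all windows. A match of this kind describes the letters and shows no binding. Beside the AP-1 and STAT motifs, an HNF1 palindrome, a heat shock element and the TATA box were searched. Of the 16 members, 0 held the HNF1 palindrome, 0 the heat shock element and 1 (Serpina7) the TATA box. These were present in 0.00913%, 0.603% and 13.6% of all windows.

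In clade B the intracellular inhibitors Serpinb6a, Serpinb6b and Serpinb9 rose 3.01, 3.89 and 4.04-fold in mean FPKM in wild-type kidneys, while Serpinb1a and Serpinb8 did not pass. Serpinb9 inhibits granzyme B, the death protease of cytotoxic lymphocytes. It was at 7.63 and 6.02 FPKM in WT and 28.02 and 27.1 in WT_IR, and at 8.89 and 8.89 in KO and 9.91 and 13.5 in KO_IR, and its change was 1.88 ± 0.15 (limma, adjusted p = 0.000158). Serpinb6b, a mouse inhibitor of granzyme A, was at 4.58 and 3.80 FPKM in WT and 16.1 and 16.6 in WT_IR, and at 4.001 and 4.96 in KO and 9.57 and 6.86 in KO_IR, with a change of 1.74 ± 0.16 (limma, adjusted p = 0.000247). Serpinb6a, whose human counterpart inhibits cathepsin G, was at 4.63 and 4.65 FPKM in WT and 13.2 and 14.8 in WT_IR, and at 4.75 and 5.28 in KO and 7.996 and 6.56 in KO_IR, and its change was 1.41 ± 0.11 (limma, adjusted p = 0.000154). For these 3 genes WT_IR stood above every other library, and KO_IR stood above KO. Serpinb1a, an inhibitor of neutrophil elastase and its relatives, was at 10.4 and 8.34 FPKM in WT and 7.68 and 5.51 in WT_IR, and at 6.79 and 6.04 in KO and 6.33 and 7.40 in KO_IR. Its highest libraries were those of WT, and the change of -0.46 ± 0.17 in wild type did not pass (limma, adjusted p = 0.0639). Serpinb8, whose human counterpart inhibits furin, was at 3.35 and 3.72 FPKM in WT and 3.76 and 5.15 in WT_IR, and at 2.10 and 1.64 in KO and 2.92 and 2.43 in KO_IR. The KO libraries were the lowest and the change of 0.26 ± 0.16 in wild type did not pass (limma, adjusted p = 0.234), although it passed on the TPM scale. Serpinb6a overlaps Nqo2, Ripk1 and an antisense RNA on the other strand, and whether the counting used strand is not known here. A further paralog, Serpinb9b, was at 0.540 and 0.485 FPKM in WT_IR, 0.0880 and 0.0382 in KO_IR and 0 in the 4 uninjured libraries.

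Among clade E and F genes that act on thrombin, urokinase and plasmin, Serpine2 rose and the plasmin inhibitor Serpinf2 fell. Serpine2 (protease nexin-1), which inhibits thrombin and urokinase, was at 2.20 and 2.26 FPKM in WT and 5.20 and 6.24 in WT_IR, and at 2.08 and 2.84 in KO and 2.86 and 3.80 in KO_IR, a change of 1.06 ± 0.16 (limma, adjusted p = 0.00175). Serpinf1 (PEDF), which inhibits no protease and restrains vessel growth, was at 0.366 and 0.302 FPKM in WT and 2.35 and 1.44 in WT_IR, and at 0.320 and 0.449 in KO and 1.000 and 1.25 in KO_IR, a change of 1.10 ± 0.18 (limma, adjusted p = 0.00237). It passed the limit for testing through the injured libraries, so its rise is a description. Serpinf2 (alpha-2-antiplasmin), the inhibitor of plasmin itself, was at 119 and 142 FPKM in WT and 68.2 and 70.1 in WT_IR, and at 104 and 98.6 in KO and 109 and 86.9 in KO_IR. WT_IR was the lowest group and the libraries of WT lay above all others, with a change of -0.90 ± 0.13 (limma, adjusted p = 0.00174). Serpini1 (neuroserpin), an inhibitor of tissue plasminogen activator in brain, stayed under the limit at 0.284 to 0.575 FPKM.

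Serping1 and Serpinh1 were the most abundant serpins to rise. Serping1, the C1 inhibitor, was at 13.1 and 19.4 FPKM in WT and 63.6 and 68.9 in WT_IR, and at 19.8 and 21.7 in KO and 38.4 and 43.9 in KO_IR. The groups followed the order WT, KO, KO_IR and WT_IR without overlap, and the change in wild type was 1.99 ± 0.17 (limma, adjusted p = 0.000189). Serpinh1 (HSP47) was at 45.7 and 47.6 FPKM in WT and 106 and 104 in WT_IR, and at 38.6 and 46.6 in KO and 60.8 and 69.1 in KO_IR. WT_IR exceeded all other libraries, KO_IR exceeded the uninjured ones, and the change was 1.15 ± 0.11 (limma, adjusted p = 0.000277).

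In the knockout the same injury moved fewer serpins past the threshold. Against KO, 1 of 19 tested members rose in KO_IR and 1 fell, where 0.948% of all tested genes rose and 0.0769% fell. The member that rose was Serpina10, at 1.68 ± 0.27 (limma, adjusted p = 0.0474), and the one that fell was Serpina1d, at -1.69 ± 0.24 (limma, adjusted p = 0.0318). Serpina10 did not pass when any 1 of 7 libraries was left out (all but KO replicate 2). Serpina1d did not pass without any 1 of the 6 KO, WT_IR and KO_IR libraries. Each fit with a library left out also called fewer of all tested genes in this comparison, so the losses are not those of these members alone. At an unadjusted p under 0.05, 12 of the 19 members differed, as did 1991 of all 15607 tested genes. Among the 12 were Serping1 at 0.95 ± 0.17 (limma, adjusted p = 0.0583) and Serpinh1 at 0.60 ± 0.11 (limma, adjusted p = 0.0635). The median log2 change was 0.36 for the 19 members and -0.02 for all tested genes. Without KO replicate 2 these medians were 0.48 and -0.02. Of the 17 members called in wild type, 17 had the same sign in the knockout, and 16 of these had a smaller change. The knockout value was at a median of 42.4% of the wild-type value, with KO replicate 2 included. These figures were not computed over all tested genes. Of those genes, 2980 rose and 3616 fell in wild type, against 148 and 12 in the knockout. The figures thus do not show a trait particular to serpins. For Serpina1c, Serpina3n and Serpinf1 the limit for testing favoured the same sign in both genotypes. These 17 were picked by their wild-type change, which favours a smaller value elsewhere, so the difference itself was tested.

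The response of the knockout minus that of wild type (the interaction) was lower for 8 members and higher for 1, where 6.68% of all tested genes were lower and 9.62% higher. The median over the 19 members was -0.73, against 0.00 over all tested genes. Lower responses in the knockout were those of Serpina10 at -2.70 ± 0.39 (limma, adjusted p = 0.00709) and Serpina3n at -2.70 ± 0.28 (limma, adjusted p = 0.00368), then Serpina3g at -1.75 ± 0.36 and Serpinb9 at -1.53 ± 0.22. Those of Serpina1b, Serping1, Serpinb6b and Serpinb6a were -1.07, -1.04, -1.003 and -0.95. Serpinf2 was the member with a higher value, at 0.84 ± 0.19 (limma, adjusted p = 0.0272), since it fell in wild type and had a change of -0.06 ± 0.13 in the knockout. Without KO replicate 2 the median of the interaction was -0.57 over the 19 members and -0.001 over all tested genes. Leaving out 1 library ended 4 of these calls in limma, as follows. The call was lost for Serpina3g without either WT library, KO replicate 2, either WT_IR library or KO_IR replicate 1 (adjusted p up to 0.0727). It was also lost for Serpinb6b without either WT library, KO replicate 2 or either WT_IR library (adjusted p up to 0.0930), for Serping1 without either KO library, either WT_IR library or KO_IR replicate 1 (adjusted p up to 0.0977) and for Serpinf2 without WT replicate 2, either KO library, either WT_IR library or KO_IR replicate 1 (adjusted p up to 0.0923). The other 5 kept it in each of the 8 fits. On the TPM scale, where the median of all genes was -0.39, 10 members were lower and 0 higher. Of all 15607 tested genes, 3783 were lower and 745 higher on that scale. The value of Serpinf2 was then 0.40 (limma, adjusted p = 0.0985). Serpine2, Serpinf1 and Serpinh1 had interaction values of -0.73 ± 0.22, -0.48 ± 0.25 and -0.55 ± 0.16 and were not called, so for them a different response of the genotypes was not shown.

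**Figure D4:**
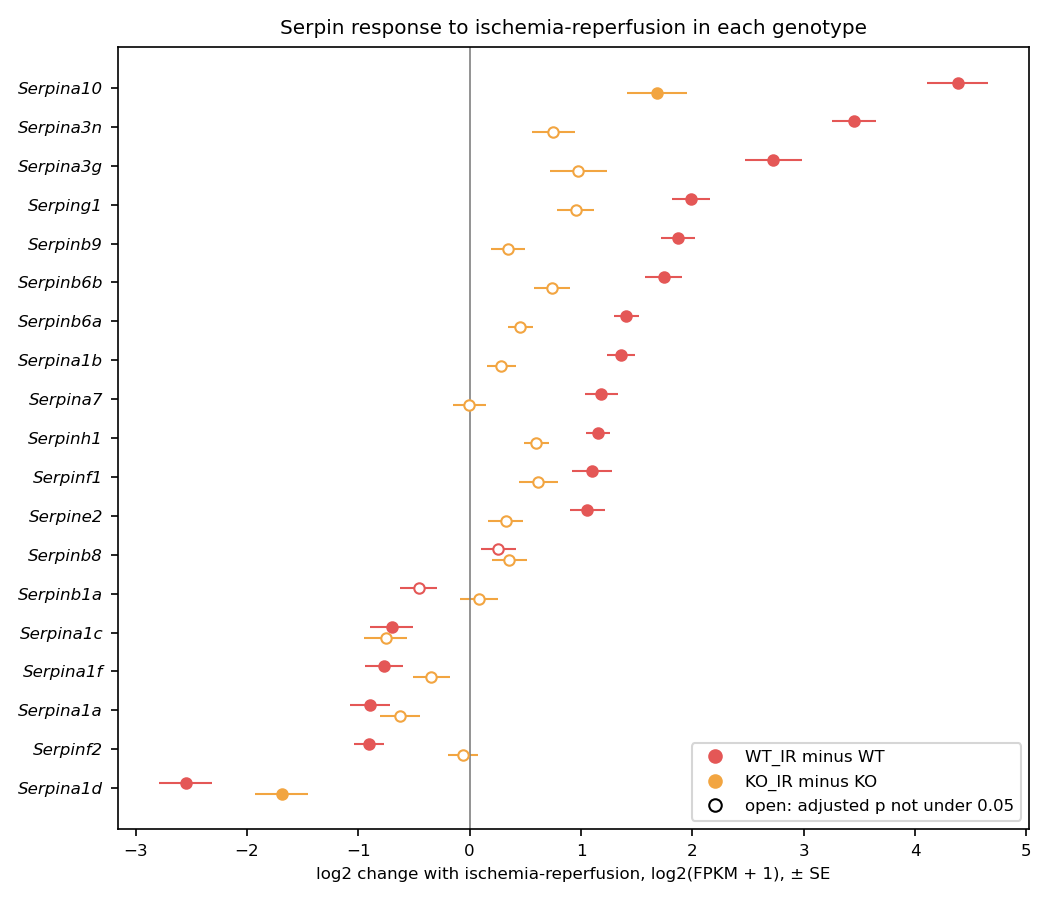
Log2 change with ischemia-reperfusion (horizontal axis, log2 of FPKM plus 1, bars are SE) of the tested serpin genes named in the text, in wild type and knockout. Filled points passed an adjusted p of 0.05 in limma. The call of Serpina7 is not counted, since it was tested through WT_IR alone. Wild-type values run from -2.55 to 4.38 and most knockout values lie nearer to 0.

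Compared directly after injury, KO_IR stood below WT_IR for 10 members and above it for 3, where 13.5% of all tested genes were lower and 16.6% higher. The lowest values were those of Serpina3n at -2.76 ± 0.20 (limma, adjusted p = 0.000379), Serpina10 at -2.08 ± 0.27 (limma, adjusted p = 0.00200) and Serpina3g at -1.33 ± 0.26 (limma, adjusted p = 0.00893). Serpinb9 was lower by 1.18 on the log2 scale, a value of -1.18, and Serpinb6b, Serpinb6a, Serpinh1, Serping1, Serpine2 and Serpinb8 had values from -0.93 to -0.56. The 3 higher members were Serpina1d at 1.21 ± 0.24 (limma, adjusted p = 0.00948), Serpina1a at 0.67 ± 0.18 (limma, adjusted p = 0.0289) and Serpinf2 at 0.49 ± 0.13 (limma, adjusted p = 0.0323). With 1 library left out, the call in limma was lost for Serpina1a without either WT_IR library or KO_IR replicate 1 (adjusted p up to 0.150) and for Serpinf2 without either KO library, either WT_IR library or KO_IR replicate 1 (adjusted p up to 0.138). Among the lower members it was lost for Serpina3g without WT_IR replicate 1 (adjusted p up to 0.0532), for Serpinb8 without WT_IR replicate 2 or either KO_IR library (adjusted p up to 0.173), for Serpine2 without WT_IR replicate 2 or KO_IR replicate 1 (adjusted p up to 0.123) and for Serping1 without either WT_IR library or KO_IR replicate 1 (adjusted p up to 0.116). On the TPM scale, which moved the median of all genes to -0.33, 13 members were lower and Serpina1d alone was higher. On that scale 5917 of all 15607 tested genes were lower and 1432 higher. The median over the 19 members was -0.64, against -0.01 over all tested genes.

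Without injury, 0 of 19 members differed between KO and WT (limma), where 0.160% of all tested genes were higher and 0.0577% lower. At an unadjusted p under 0.05 there were 4 members, beside 1854 of all 15607 tested genes. Voom on recovered fragments also called 0 members, and over all tested genes 39 higher and 22 lower. The 4 were Serpina1b at 0.68 ± 0.13 (limma, adjusted p = 0.121), Serpinb8 at -0.66 ± 0.16 (limma, adjusted p = 0.184), Serpinb1a at -0.48 ± 0.17 (limma, adjusted p = 0.330) and Serpinf2 at -0.35 ± 0.13 (limma, adjusted p = 0.374).

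The proteases that serpins inhibit were read from lists. Of the 8 measured leukocyte proteases (13 listed), 6 rose and 1 fell in WT_IR. Those with the smallest p were the cathepsins Ctss at 3.06 ± 0.15 (limma, adjusted p = 5.08e-05) and Ctsk at 1.94 ± 0.11 (limma, adjusted p = 6.23e-05), followed by the granzymes Gzmb at 1.38 ± 0.26 (limma, adjusted p = 0.00522) and Gzma at 0.94 ± 0.19 (limma, adjusted p = 0.00649). Gzmb stood at 1.61 and 2.30 FPKM in WT_IR and 0.0430 and 0.225 in WT. Elane, Ctsg and Prtn3, which encode the serine proteases of neutrophil granules, were among the 5 listed genes under the limit, and 3 listed genes were at 0 in all libraries. In KO_IR against WT_IR 0 of these proteases were higher and 4 lower, and in the interaction 2 were lower.

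Coagulation and fibrinolysis genes mostly rose in wild-type kidneys. Of 8 measured (16 listed), 7 rose and 1 fell. Plat, the tissue plasminogen activator, rose from 7.54 and 6.98 FPKM to 21.4 and 20.6, a change of 1.41 ± 0.08 (limma, adjusted p = 6.34e-05), and Plaur, the urokinase receptor, from 1.49 and 1.38 to 11.5 and 11.5, a change of 2.36 ± 0.22 (limma, adjusted p = 0.000248). The thrombin receptor gene F2r rose by 2.35 ± 0.29 (limma, adjusted p = 0.000721), while Proc, the protein C gene, had a change of -1.21 ± 0.16 (limma, adjusted p = 0.00115). In KO_IR against WT_IR Plat, Plaur and F2r were lower and Proc was higher. Of the 3 measured genes of complement C1 and MASP proteases (7 listed), the targets of Serping1, C1s1 and C1ra rose by 1.83 and 2.000. Both were lower in KO_IR than in WT_IR and in the interaction. C1rl was not called in wild type, at -0.30, and was higher in KO_IR than in WT_IR, by 0.57 ± 0.16 (limma, adjusted p = 0.0360).

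Epithelial and matrix serine proteases went the other way, with 2 of 11 measured genes higher and 6 lower in WT_IR (12 listed). Klk1, tissue kallikrein, was at 2120.0 and 2037 FPKM in WT and 162 and 176 in WT_IR, and at 1848 and 1821 in KO and 1839.8 and 1693 in KO_IR. The change in wild type was -3.61 ± 0.12 (limma, adjusted p = 3.78e-05), and its interaction was 3.56 ± 0.17 (limma, adjusted p = 0.00101). The membrane proteases Hpn and Prss8 and the proprotein convertase Furin also fell, by 1.05, 0.86 and 0.71 on the log2 scale. In the interaction 6 genes of this list were higher and 0 lower. Of the 15 listed collagen chains and collagen-modifying partners of Serpinh1, 10 rose and 1 (P4hb) fell in WT_IR. Col1a1, Col3a1, Col1a2 and Col5a1 led with 4.75, 5.03, 3.50 and 2.51. In KO_IR 7 of the 15 rose against KO, and 10 were lower than in WT_IR. The median change of the list was 1.88 in wild type and 0.82 in the knockout.

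Markers of infiltrating and stromal cells moved in the same samples as the serpins, and in whole kidney more cells of a type and more RNA per cell cannot be told apart. All 6 macrophage markers rose in WT_IR, led by C1qb, Cd68, C1qa and Adgre1, and their sum was 48.1 and 51.8 FPKM for WT, 61.9 and 95.1 for KO, 473 and 490.1 for WT_IR and 206 and 267 for KO_IR. The 5 fibroblast and pericyte markers also rose, led by Col1a1, Pdgfrb, Dcn and Lum, with sums of 8.99 and 14.5 FPKM for WT, 15.1 and 16.4 for KO, 135 and 149 for WT_IR and 59.7 and 62.3 for KO_IR. Of the T and NK cell markers the 3 measured ones (Cd2, Nkg7 and Trbc2, of 5 listed) rose, with sums of 0.854 and 2.26 FPKM for WT, 1.003 and 3.41 for KO, 16.7 and 23.8 for WT_IR and 4.21 and 8.30 for KO_IR. The neutrophil markers Csf3r and S100a9 rose while S100a8 and Retnlg were not called, with sums of 3.86 and 6.44 FPKM for WT, 5.20 and 6.31 for KO, 11.04 and 15.9 for WT_IR and 3.81 and 4.96 for KO_IR over the 5 listed genes. No listed marker of these cells was at 0 in all libraries. All 5 proximal tubule markers fell in WT_IR, led by Slc22a8, Slc5a2, Slc22a6 and Slc34a1, and 0 were called in KO_IR against KO. Thick ascending limb and podocyte markers fell too, 3 of 3 each, and collecting duct markers fell in 2 of 3. Of 5 endothelial markers 4 rose (Cdh5, Pecam1, Emcn and Tie1) and Kdr fell, and 0 of 3 measured keratinocyte markers were called. Of the 4 measured hepatocyte genes (6 listed), Alb, Apob and Apoa1 fell and Fgb rose, with Alb at 2.71 and 3.04 FPKM in WT and 0.121 and 0.0420 in WT_IR. In KO_IR against WT_IR 4 macrophage, 2 neutrophil, 3 T and NK cell and 3 fibroblast markers were lower and all 5 proximal tubule markers were higher. The part of these cell markers in the serpin changes was not tested.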

How the data were processed

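Polyadenylated RNA from 8 pooled kidney libraries was analysed. The authors deposited FPKM values and gene lengths for 54251 genes, and per the submitters' processing notes reads were aligned with HISAT2 2.0.5 to mm10 (GRCm38.p6). For the counter, the annotation release and the strand setting, nothing is stated (not given in the sources used here). The deposited FPKM times gene length gave whole fragments for 100% of values (tolerance 0.0001). The library size implied by the FPKM was 1.18 and 1.19 times the gene total in WT_IR and 0.921 to 1.03 times in the others. FPKM are not counts, so limma 3.58.1 (R 4.3.3) was fitted to log2(FPKM + 1), which understates changes of low genes. The fit used all 8 libraries with 4 group means and a trend of variance on level, over the 15607 genes averaging 0.5 FPKM or more (4 residual and 3.04 prior degrees of freedom). Benjamini-Hochberg adjustment ran over all tested genes of a comparison, for 5 comparisons, with a threshold of 0.05. The steps were tested on simulated data.

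Every tested serpin is named except 1, which is not reported here, and of each gene list the measured genes with the smallest p. The members and lists were chosen with earlier results of these data known. Gene coordinates and exon lengths of 60 of 61 members were the same as in GENCODE M21. RefSeq promoter windows matched 52 members by symbol. No protein sequence was used. Alternatives were pseudocounts of 0.1 and 5, a filter at 5 FPKM or none, TPM or median-of-ratios scaling, no trend, a replicate block, voom on the recovered fragments, a fit of the compared groups alone, and leaving out each library. Floors of 3 fragments cover counting error only.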

Additional observations from a re-analysis of the deposited data

Results flagged for a closer look

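The response to ischemia-reperfusion differed between knockout and wild type for 9 serpins by the interaction term (limma, adjusted p under 0.05), which is given here as the knockout response minus the wild-type response on the log2 scale. It was -2.70 for Serpina10 and -2.70 for Serpina3n. For Serpina3g it was -1.75 and for Serpinb9 -1.53. The value for Serpina1b was -1.07, with the doubt over its close paralogs stated above. Serping1 had -1.04, Serpinb6b -1.003 and Serpinb6a -0.95. The value for Serpinf2 was 0.84, the positive one among them. Serpina7 had -1.18, but it entered the test through WT_IR alone, where it is high, so that a lower value was fixed by the filter and is a description.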

How the results depend on the processing

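Of the 44 member changes called over the 5 comparisons, 29 kept their call under every setting run in which they were tested, 15 lost it under at least 1 setting (2 of these when a library was left out and under no other setting), and 0 changed direction. Counts of members here include Serpina7. Of these a minimum mean of 5 FPKM, which tests fewer genes, gave 7 higher in WT_IR against WT and 7 lower in KO_IR against WT_IR. Over the 7728 genes it tests, these counts were 1312 and 1128. The TPM scale gave 3 lower in WT_IR against WT, 2 higher in KO_IR against KO, 1 higher in KO_IR against WT_IR and 0 higher in the interaction. Over all 15607 tested genes these counts were 1554, 242, 1432 and 745. For KO_IR against KO, 0 were higher with a pseudocount of 0.1, with no filter, without the trend and with only the groups compared, 2 with a minimum mean of 5 FPKM and 3 with voom on recovered fragments. The lower count of that comparison was 0 with no filter and 0 with only the groups compared. The fit with only the groups compared called 0 of all 15607 genes in each direction, so its counts say nothing particular to serpins. No filter called 23 of 29649 genes higher and 12 lower. Over all genes the higher count was 147 with a pseudocount of 0.1 and 145 without the trend. It was 106 with a minimum mean of 5 FPKM and 284 with voom. No filter gave 1 higher in KO_IR against WT_IR and 0 higher in the interaction, and also ended the lower calls of Serpinb8, Serpine2 and Serping1 in KO_IR against WT_IR and of Serpina3g, Serpinb6b and Serping1 in the interaction (11 of the 44 calls in all). The cause was not tested. Over all 29649 genes no filter gave 2185 higher in KO_IR against WT_IR and 968 higher in the interaction. With the replicate number as a block, 3 were higher in KO_IR against KO and 2 higher in the interaction. Over all tested genes these counts were 158 and 1472. The call of Serpinb8 in KO_IR against WT_IR was lost with this block. The labels give the numbers no meaning as pairs, and same-numbered libraries deviated with correlations of -0.12 to 0.16, so the numbers were not used as pairs. Leaving out each library in turn gave 3 to 5 lower in WT_IR against WT (3 without WT replicate 2), 0 to 1 higher and 0 to 1 lower in KO_IR against KO, 1 to 3 higher and 9 to 12 lower in KO_IR against WT_IR (1 higher without either WT_IR library or KO_IR replicate 1), and 0 to 1 higher and 6 to 9 lower in the interaction. The higher count in WT_IR against WT stayed at 13. A group left with 1 library is assumed to vary like the others. KO against WT gave 0 under every setting run. Serpinf2 kept its interaction call in 2 of the 8 fits that leave out a library. Depth limits Serpina1c, Serpina7 and most of the 41 members under the limit, while Serpini1, a long gene, was under it with 32 to 71 fragments a library.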

Other observations

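Genes listed with the inhibitors of serine proteases outside the serpin family, not all of which encode an inhibitor, did not move one way in wild-type kidneys. Of 14 measured genes (17 listed), 4 rose and 4 fell in WT_IR, and their median log2 change was -0.15. Pzp, a relative of alpha-2-macroglobulin, was at 5.29 and 7.23 FPKM in WT and 0.925 and 0.951 in WT_IR, a change of -1.89 ± 0.21 (limma, adjusted p = 0.000476). Itih2 and Spink1 fell as well, by 0.95 and 0.89 on the log2 scale, and Itih3 rose by 1.002 ± 0.16 (limma, adjusted p = 0.00220). Itih2 and Itih3 encode heavy chains that are linked to hyaluronan, and Spink1 a secreted trypsin inhibitor. Spink1 stood at 1005 and 997 FPKM in WT, 573 and 511 in WT_IR and 967 and 691 in KO_IR, in each library above every serpin. In the interaction 2 genes of this list were higher (Pzp and Spink1) and 1 lower (Itih3).

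Of the 7 measured receptors and cofactors that clear or assist serpins (8 listed), 3 rose and 2 fell in WT_IR. Lrp1, which takes up complexes of serpins with proteases, went from 2.003 and 3.11 FPKM in WT to 11.9 and 11.3 in WT_IR, a change of 1.85 ± 0.16 (limma, adjusted p = 0.000204). Its relative Lrp2, the megalin of the proximal tubule and also one of the proximal tubule markers, went from 94.5 and 99.9 to 48.4 and 27.6, a change of -1.38 ± 0.23 (limma, adjusted p = 0.00290). Sdc1 and Hspg2, which encode heparan sulfate proteoglycans, rose by 1.40 ± 0.16 and 0.78 ± 0.19. KO_IR had 4.77 and 5.99 FPKM of Lrp1 and 114 and 111 of Lrp2, with interactions of -1.37 ± 0.23 (limma, adjusted p = 0.0104) and 1.23 ± 0.33 (limma, adjusted p = 0.0453).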
